A study of Mus musculus with 6 samples.

Results

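The solute carriers of the mitochondrial inner membrane whose gene symbol has the form Slc25a followed by a number were examined in whole blood of food-restricted mice. Slc25a37, Slc25a38 and Slc25a20 were left out of the set. Probes of the array were named through their RefSeq accession, and 37 carriers had a probe, of 16535 named genes on the array. Of the 37 carriers, 23 were bright enough to be tested, among 11499 features tested in all. The treated animals were male C57BL/6J mice, 9 weeks old, given 50% food restriction (FR) for 2 weeks, and the control animals were mice of the same strain, sex and age on a normal diet, with 8 animals per diet. Blood was drawn from the right ventricle of the heart, and the RNA of several animals was combined per diet, animals 1 to 4 in pool 2, the remaining 4 in pool 3 and all 8 in pool 1. FR and control RNA of a pool were hybridised together on 2 Agilent two-colour arrays with the dyes exchanged. The 2 replicates of each test are pools 2 and 3, which have no animal in common, while pool 1 measures the same animals once more on another slide. With pooled RNA the p-values rest on the spread between these 2 pools, taken over genes of like brightness, and not on that between animals. The SD printed for a gene is that of its own 2 pool ratios and did not set its p-value in the main fit.

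Slc25a proteins carry small molecules across the inner membrane, which is closed to charged solutes, and so link the citric acid cycle, oxidative phosphorylation and amino acid metabolism to the cytosol. Most are built from a repeated pair of transmembrane helices and exchange one substrate for another. Mature red cells have lost their mitochondria, whereas reticulocytes, leukocytes and platelets still hold some, and erythroid precursors depend on several carriers to make heme. All values below are log2 ratios of FR over control, or log2 signals of the spots after normalization. Probes differ in brightness, so levels of a gene were compared between diets within a probe. For the carriers, signal was ranked across probes just to choose which to describe in full. Signals of cell type markers were also summed across probes, and such sums are weighted towards the brightest probes of a list.

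No carrier rose and 11 of the 23 tested carriers fell in FR blood (limma, adjusted p under 0.05). The 11 were Slc25a5, Slc25a11, Slc25a3, Slc25a4, Slc25a12, Slc25a28, Slc25a51, Slc25a17, Slc25a46, Slc25a24 and Slc25a45. The largest decrease was that of the adenine nucleotide exchanger Slc25a5, at -1.67 ± 0.59 (SD, n = 2 pools), followed by the oxoglutarate carrier Slc25a11, the phosphate carrier Slc25a3 and the adenine nucleotide exchanger Slc25a4, at -1.07, -0.96 and -0.78. Carriers of citrate, glutathione, basic amino acids and pyrimidine nucleotides, all well above background in both diets, did not pass the test. Among all features 24.5% were called lower and 3.76% higher in the same fit. The carriers' median ratio was -0.26, or -0.28 in pool 2 and -0.23 in pool 3, beside a median of 0.01 over all features.

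The filter on dim spots bears on these counts. A gene entered the test if at least one diet was well above background on each of the 4 arrays of pools 2 and 3. Both diets met this for 7 carriers, 15 entered through control alone and Slc25a47 through FR alone. Of the 15 that entered through control, 9 fell and the median was -0.30, beside 35.5% called lower and a median of -0.15 among the 4324 features of that kind. Entry by that route favours genes that are lower in FR, so the overall count and median are given as a description. Of the 7 carriers that met the filter in both diets, Slc25a5 and Slc25a51 fell and the median was 0.07, beside 18.3% called lower and a median of 0.06 among the 7047 features of that kind. With 2 pools the fit gave genes of like brightness a common variance. The prior degrees of freedom estimated from all 3 pools (5.32) were then put in place of the fit's own, with the prior variance unchanged. Under this setting, called the 3-pool variance prior, 4 carriers still passed, namely Slc25a5, Slc25a3, Slc25a11 and Slc25a4. Among all features 15.3% were called lower and 1.5% higher under it. Pool 1 repeats the animals of pools 2 and 3, so the 3 pools behind this value are not independent.

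**Figure D1:**
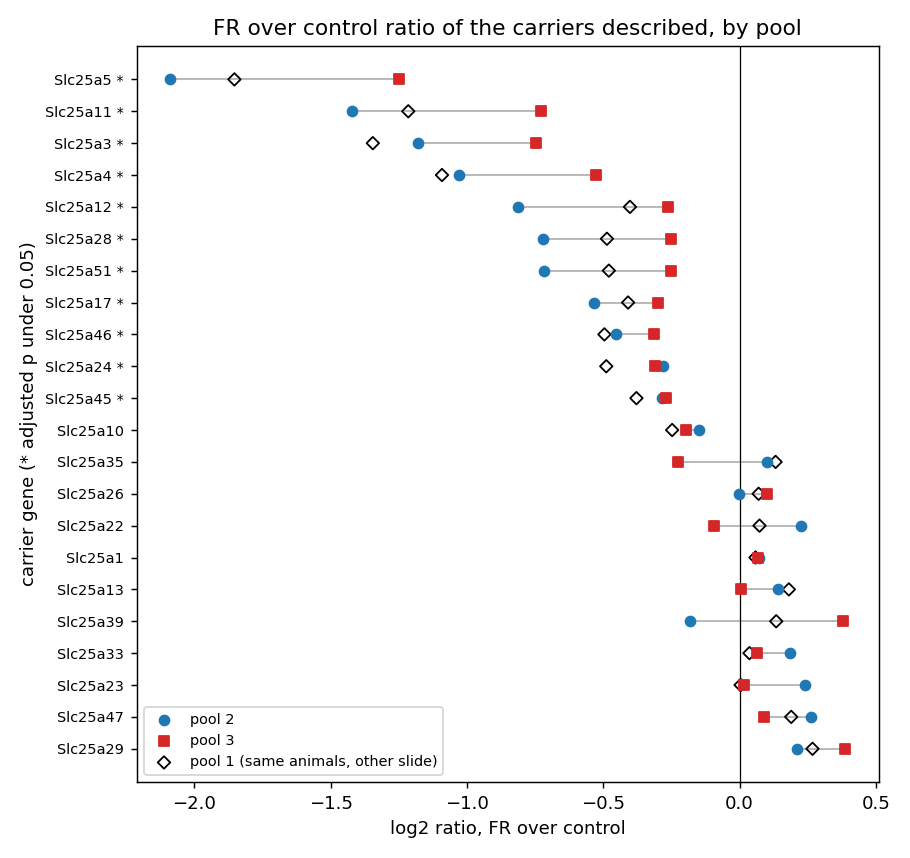
Log2 ratio of FR over control (x axis) for the tested carriers described in the text (y axis), with 1 point per pool and a grey line joining pools 2 and 3. The 11 carriers with a star fell, with Slc25a5 lowest. Of these 11, 10 had the lower ratio in pool 2, a count not made over all features called lower.

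The first group to be described moves adenine nucleotides and phosphate, the substrates and product of ATP synthase. Of its 5 tested members 4 fell and Slc25a23 did not pass, beside 24.5% called lower among all features. All of the 5 but Slc25a5 had entered through control alone, a route by which 35.5% of features were called lower. Slc25a5 is the adenine nucleotide translocase of most proliferating tissues, and takes ADP in and ATP out. Its log2 signal was 7.22 and 7.36 in FR pools 2 and 3, against 9.31 and 8.61 in the control pools. FR and control pools did not overlap, and FR was above background on all 4 arrays. The ratio was -2.09 in pool 2, -1.25 in pool 3 and -1.85 in the repeat pool 1, and the mean corresponds to a 3.18-fold lower signal (limma adjusted p = 8.29e-25, and 0.00615 under the 3-pool variance prior). On single arrays the ratio was -2.09 with FR in Cy5 and -2.08 with FR in Cy3 in pool 2, and -1.41 and -1.09 in pool 3, so both dye orders gave the same direction.

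Slc25a4 is the adenine nucleotide translocase of heart and skeletal muscle. Its signal was 6.88 and 6.85 in FR pools 2 and 3, against 7.91 and 7.37 in control, with no overlap. The ratio was -0.78 ± 0.35 (SD, n = 2 pools, limma adjusted p = 1.47e-06, and 0.0265 under the 3-pool variance prior). A further probe of the gene gave -0.72, with -0.90 in pool 2 and -0.54 in pool 3. FR signal was above background on 2 of the 4 arrays, so the size of the decrease is less certain than its direction. Slc25a3 brings inorganic phosphate into the matrix. It had 6.995 and 6.84 in FR pools 2 and 3, against 8.18 and 7.59 in control, a ratio of -0.96 ± 0.31 (SD, n = 2 pools, limma adjusted p = 4.51e-09, and 0.0130 under the 3-pool variance prior). FR signal of Slc25a3 was likewise above background on 2 of the 4 arrays, with the same limit on size. The repeat pool gave -1.34 for Slc25a3 and -1.09 for Slc25a4, both further from 0 than pools 2 and 3.

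Slc25a24 and Slc25a23 exchange ATP-Mg for phosphate and are opened by calcium. Slc25a24 stood at 6.71 and 6.40 in FR pools 2 and 3 and at 6.99 and 6.71 in control, and the groups met at their edges. Its ratio of -0.30 ± 0.02 passed narrowly (SD, n = 2 pools, limma adjusted p = 0.0444) and did not pass under the 3-pool variance prior (0.128). Slc25a23 was at 0.13 ± 0.16. The germ cell translocase Slc25a31, and Slc25a25 and Slc25a41, were too dim to be tested.

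**Figure D2:**
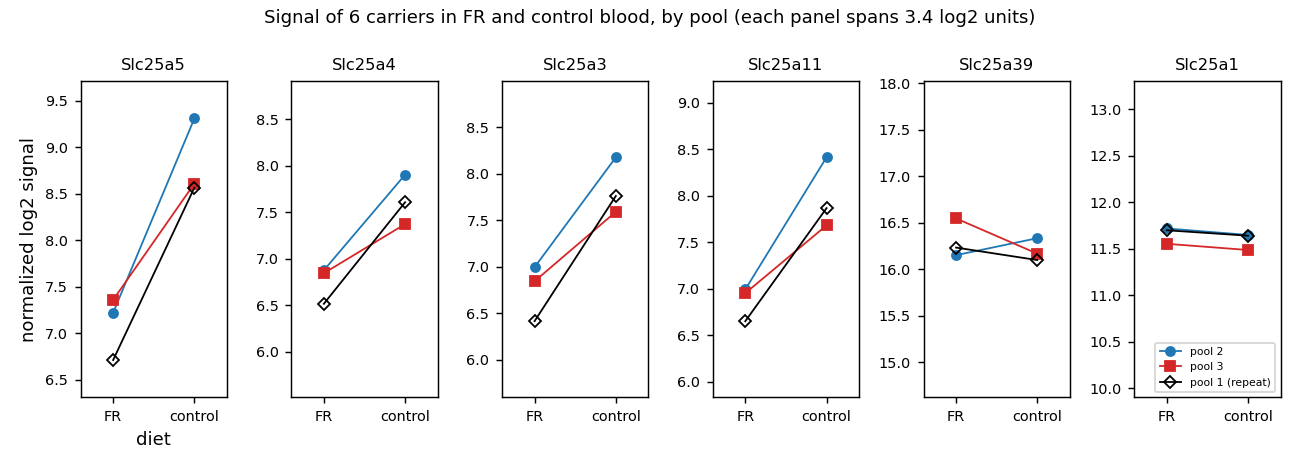
Normalized log2 signal (y axis) of 6 carriers in FR and control blood (x axis), with lines joining the diets of a pool; open diamonds are the repeat pool 1. FR lies below control in each pool for Slc25a5, Slc25a4, Slc25a3 and Slc25a11, while the lines of Slc25a39 cross and those of Slc25a1 are nearly flat.

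The promoters of the 4 carriers that fell under both variance models are shown, a choice made from these same ratios. Of these carriers, Slc25a3, Slc25a4 and Slc25a11 had entered the test through control alone. Whether the genes share a regulator was not tested. Each is the window from 250 bases before to 50 after the RefSeq start, from build GRCm38.p6, 5′ to 3′ on the gene's strand. Capitals mark the GC box bound by Sp factors (GGGCGG or its complement) and the core bound by ETS factors (CCGGAAG or its complement).
Slc25a5, chrX:36795347-36795646, plus strand: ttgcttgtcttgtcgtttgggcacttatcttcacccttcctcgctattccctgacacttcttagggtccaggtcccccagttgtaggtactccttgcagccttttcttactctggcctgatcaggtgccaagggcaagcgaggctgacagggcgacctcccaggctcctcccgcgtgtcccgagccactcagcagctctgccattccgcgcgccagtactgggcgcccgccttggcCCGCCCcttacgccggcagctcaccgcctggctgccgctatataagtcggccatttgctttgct
Slc25a4, chr8:46211013-46211312, minus strand: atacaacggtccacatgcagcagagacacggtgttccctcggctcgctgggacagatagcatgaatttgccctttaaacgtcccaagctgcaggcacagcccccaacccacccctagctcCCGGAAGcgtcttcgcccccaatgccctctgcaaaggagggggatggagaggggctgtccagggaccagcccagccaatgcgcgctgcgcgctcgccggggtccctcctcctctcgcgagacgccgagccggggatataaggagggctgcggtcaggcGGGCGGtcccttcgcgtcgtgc
Slc25a3, chr10:91123918-91124217, minus strand: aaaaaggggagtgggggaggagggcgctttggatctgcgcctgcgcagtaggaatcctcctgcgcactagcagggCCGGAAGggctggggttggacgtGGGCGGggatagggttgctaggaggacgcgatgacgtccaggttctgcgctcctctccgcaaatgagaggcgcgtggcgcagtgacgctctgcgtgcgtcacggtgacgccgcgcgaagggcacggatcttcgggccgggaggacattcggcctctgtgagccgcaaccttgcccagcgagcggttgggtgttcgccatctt
Slc25a11, chr11:70646990-70647289, minus strand: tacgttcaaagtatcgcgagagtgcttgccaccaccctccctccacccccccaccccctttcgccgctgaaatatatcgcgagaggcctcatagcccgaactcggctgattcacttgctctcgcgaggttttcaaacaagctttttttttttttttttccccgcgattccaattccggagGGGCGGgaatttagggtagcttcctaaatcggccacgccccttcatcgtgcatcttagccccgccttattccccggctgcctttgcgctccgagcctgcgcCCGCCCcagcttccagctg

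Each of the 4 windows holds a GC box, and Slc25a11 holds 2. Slc25a3 and Slc25a4 also hold the ETS core. Over both strands, a GC box was present in 35.7% and the ETS core in 8.86% of the 32851 promoter windows of the RefSeq table. A window was found for 28 of the 37 carriers, and 24 of the 28 held a GC box and 4 the ETS core. Among the carriers that fell, 9 of 11 had a window, 8 of these 9 with a GC box and 3 with the ETS core. Marked letters do not overlap between the motifs in the printed windows. The CCAAT box (CCAAT) was in 17 of the 28 and in 37.4% of all windows, the E-box (CACGTG) in 6 and 7.15%, the TATA box (TATAAA) in 1 and 13.6%, and the core bound by NRF1 (GCGCATGC), a factor known for mitochondrial genes, in 1 and 2.71%. These matches describe the letters of the windows and say nothing of binding in blood.

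Among carriers of other nucleotides, cofactors and vitamins, 2 of 5 tested members fell, beside 24.5% called lower among all features. Slc25a51, which imports NAD into the matrix, was well above background in both diets, at 11.06 and 11.29 in FR pools 2 and 3, against 11.78 and 11.54 in control. The groups did not overlap, and the decrease was larger in pool 2 (-0.72) than in pool 3 (-0.25), a mean of -0.49 ± 0.33 (SD, n = 2 pools, limma adjusted p = 0.00488, and 0.103 under the 3-pool variance prior). Slc25a17, a carrier of coenzyme A and other cofactors that sits in the peroxisome membrane, was at -0.42 ± 0.17 (limma adjusted p = 0.0218, n = 2 pools, and 0.111 under the 3-pool variance prior), with 7.23 and 6.96 in FR and 7.76 and 7.26 in control. A further kept probe of Slc25a17 gave -0.08, so its probes disagree, and the mean of both did not pass (adjusted p = 0.187). The S-adenosylmethionine carrier Slc25a26 and the pyrimidine nucleotide carrier Slc25a33 did not pass, at 0.05 and 0.12. Slc25a33 had 7.93 and 8.37 in FR and 7.74 and 8.30 in control, and the groups overlapped.

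Beside 24.5% called lower among all features, 1 of the 3 tested carriers of di- and tricarboxylates fell, namely Slc25a11. It exchanges oxoglutarate for malate and is one of the carriers of the malate-aspartate shuttle, by which cytosolic NADH is passed to the respiratory chain. It had 6.99 and 6.95 in FR pools 2 and 3, against 8.41 and 7.68 in control. The FR pools differed little and the control pools by more, and the ratio was -1.07 ± 0.49, or 2.11-fold lower (SD, n = 2 pools, limma adjusted p = 9.28e-11, and 0.0165 under the 3-pool variance prior). FR was above background on 3 of 4 arrays. Slc25a1, which exports citrate for fatty acid and sterol synthesis, had 11.72 and 11.55 in FR and 11.65 and 11.49 in control, with ratios of 0.07 in both pools and 0.06 in the repeat pool. The groups overlapped, and the mean of 0.07 ± 0.00 did not pass (limma adjusted p = 0.785). Relative to the median of each array the Slc25a1 ratio was -0.10, so its sign depends on the centring. The dicarboxylate carrier Slc25a10 was at -0.17 ± 0.04 and did not pass.

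Amino acid and glutathione carriers had 1 of 5 tested members lower, beside 24.5% among all features. Slc25a12 exchanges aspartate for glutamate, the other carrier step of the malate-aspartate shuttle. Its signal was 6.77 and 6.88 in FR pools 2 and 3, against 7.58 and 7.14 in control, and the ratio of -0.54 ± 0.39 differed between pool 2 (-0.81) and pool 3 (-0.26) (SD, n = 2 pools, limma adjusted p = 8.06e-04). FR was above background on 2 of 4 arrays. When pool 1 replaced pool 2 the ratio was -0.33 and no longer passed (adjusted p = 0.0537), and under the 3-pool variance prior it did not pass either (0.0836). Slc25a13, which catalyses the same exchange in liver, was at 0.07 ± 0.10, and the difference between both genes was not tested. Slc25a22, a glutamate carrier, was at 0.07 ± 0.23.

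Slc25a39, needed for glutathione import and for heme synthesis in erythroid cells, had 16.15 and 16.55 in FR pools 2 and 3 and 16.33 and 16.17 in control. The ratio was below 0 in pool 2 (-0.18) and above 0 in pool 3 (0.38), with 0.13 in the repeat pool. Its mean of 0.10 ± 0.40 did not pass (limma adjusted p = 0.789, n = 2 pools), and on the arrays of pool 3 it was 0.10 with FR in Cy5 and 0.66 with FR in Cy3. A further probe gave 0.29. Slc25a29, a carrier of basic amino acids, had the highest ratio among the 23 carriers, at 0.30 ± 0.13, with 8.26 and 8.65 in FR and 8.05 and 8.26 in control. The higher control pool just reached the lower FR pool. It did not pass (limma adjusted p = 0.152), but was called higher when pool 1 replaced pool 2 (0.33, adjusted p = 0.0435) or pool 3 (0.24, adjusted p = 0.0233), fits in which the pools are not independent. On arrays with FR in Cy5 its ratio was 0.00 in pool 2 and 0.04 in pool 3, and with FR in Cy3 it was 0.42 and 0.73.

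Slc25a28, mitoferrin 2, brings iron into mitochondria of many cell types. It had 6.67 and 6.74 in FR pools 2 and 3, against 7.39 and 6.99 in control, with no overlap, and the ratio was -0.49 ± 0.33 (SD, n = 2 pools, limma adjusted p = 0.00148, and 0.0855 under the 3-pool variance prior). FR was above background on 1 of 4 arrays. When pool 1 replaced pool 2 the ratio of -0.37 did not pass (adjusted p = 0.0558). Of the carriers with a less defined substrate, Slc25a46 and Slc25a45 fell. Slc25a46, an outer membrane protein that takes part in mitochondrial dynamics, was at -0.38 ± 0.10 (n = 2 pools, limma adjusted p = 0.0106, and 0.0806 under the 3-pool variance prior), with 6.69 and 6.61 in FR and 7.14 and 6.92 in control. Its FR signal was above background on 2 of 4 arrays. Slc25a45 was not well above background in FR on any array. Its mean signal was 6.36 in FR and 6.63 in control, at least 1.17-fold lower in FR against the lowest signals that were well above background (limma adjusted p = 0.0322, and 0.0501 when pool 1 replaced pool 2). Slc25a35 and Slc25a47 were at -0.06 and 0.18 and did not pass.

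The 14 carriers not tested were above background on fewer than all 4 arrays in either diet: Slc25a14, Slc25a16, Slc25a21, Slc25a25, Slc25a27, Slc25a30, Slc25a31, Slc25a32, Slc25a36, Slc25a40, Slc25a41, Slc25a42, Slc25a44 and Slc25a48. For 8 of them no array was well above background in either diet, so a difference was not detectable at this brightness. A further 7 symbols of the family in the RefSeq table had no named probe: Slc25a2, Slc25a15, Slc25a18, Slc25a34, Slc25a43, Slc25a53 and Slc25a54.

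The carriers' partners were read from lists of 45 genes, of which 28 were tested, with 12 lower, 1 higher and 15 that did not pass, beside 24.5% lower and 3.76% higher among all features. Both diets met the filter on dim spots for 22 of the 28, with 11 lower and 1 higher, and the other 6 entered through control alone, with 1 lower (Tomm22). Malate-aspartate shuttle enzymes fell in 2 of 4 tested, with the cytosolic malate dehydrogenase Mdh1 at -1.06 ± 0.54 and the mitochondrial one, Mdh2, at -0.49 ± 0.47, while the aminotransferases Got1 and Got2 were at -0.02 and -0.32. Outer membrane channels, through which carrier substrates reach the inner membrane, fell in 2 of 3, Vdac3 at -0.87 ± 0.06 and Vdac1 at -0.55 ± 0.02 (SD, n = 2 pools), with Vdac2 at -0.18. Other inner membrane transporters fell in 3 of 5 tested. These were Mpc2 at -1.09 ± 0.09 and Mpc1 at -0.45 ± 0.13, which together form the pyruvate carrier, and the serine transporter Sfxn1 at -0.84 ± 0.14. Proteins of the same family under other symbols had 1 of 3 lower, Mtch1 at -0.95 ± 0.53, while the uncoupling protein Ucp2 was at -0.25 ± 0.57 and Mtch2 at -0.24. The pyruvate carrier subunit Mpc2 and the channel Vdac3 were alike in pools 2 and 3, with ratios of -1.15 and -1.03 for Mpc2 and -0.91 and -0.83 for Vdac3.

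Import of carriers into mitochondria runs through receptors and a pore of the outer membrane and through small chaperones between the membranes. Of 11 tested genes of this machinery 4 fell, namely the receptors Tomm22 at -0.91 ± 0.09 and Tomm20 at -0.65 ± 0.16, the pore subunit Tomm7 at -0.83 ± 0.23 and the chaperone Timm10 at -0.50 ± 0.03 (SD, n = 2 pools). The carrier receptor Tomm70a was at 0.05, and the chaperones Timm9, Timm8b and Timm13 lay between -0.02 and 0.05, none of them past the test. Mitochondrial folate enzymes had Mthfd2 higher at 1.27 ± 0.44 and Mthfd1l at -0.21. The folate carrier of the inner membrane, Slc25a32, was not above background on any array, so no ratio is given for it. Under the 3-pool variance prior, Mpc1, Timm10 and Mdh2 no longer passed (adjusted p = 0.0862, 0.0628 and 0.143).

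**Figure D3:**
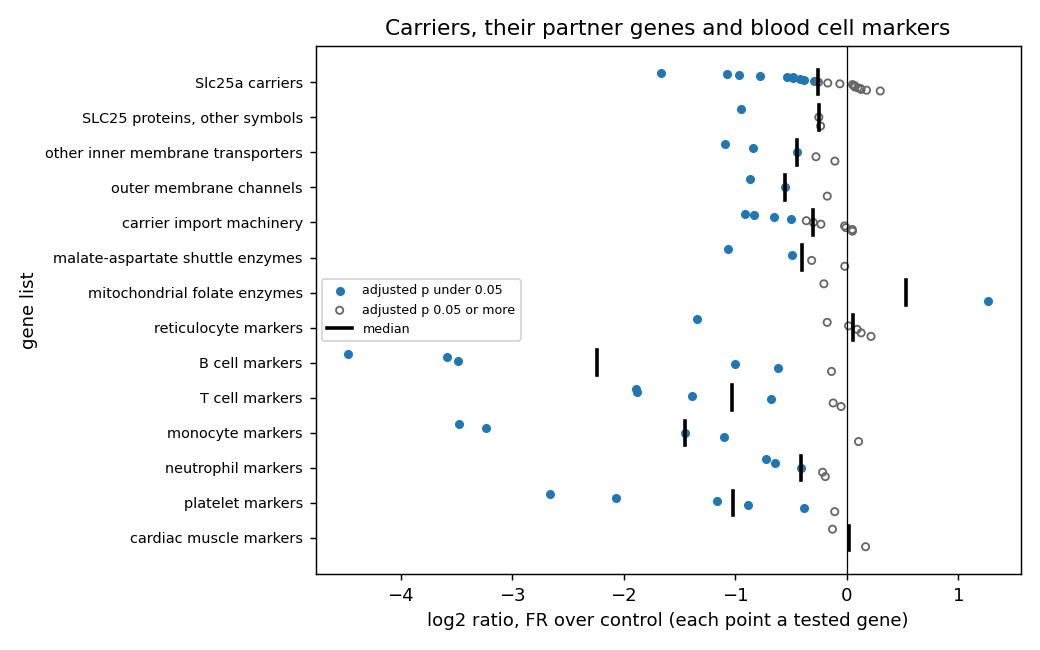
Log2 ratio of FR over control (x axis) for every tested gene of each list (y axis); filled points have an adjusted p under 0.05 and black bars are list medians. Medians were -0.26 for the carriers (0.07 for the 7 that met the filter in both diets). The partner lists had medians between -0.55 and 0.53. Marker medians were 0.05 for reticulocytes, 0.02 for cardiac muscle and -0.41 for neutrophils. They were -1.03 for T cells and for platelets, -1.45 for monocytes and -2.24 for B cells.

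Whole blood mixes cell types, and in such samples fewer cells of a type and less RNA per cell cannot be told apart. Most of the white cell and platelet markers tested were lower in the same pools, in a fit that called 24.5% of all features lower. Over all marker lists, 26 genes met the filter on dim spots in both diets, and 15 of them fell, beside 18.3% of such features. The other 10 entered through control alone, a route that favours genes lower in FR, and 7 fell, beside 35.5% of such features. For B cells 5 of 6 markers fell, with a summed signal on the linear scale of 1661 and 1747 in FR pools 2 and 3, against 13620 and 9318 in control, and for monocytes 4 of 5 fell, with 3988 and 4974 in FR, against 45040 and 30240 in control. For T cells 4 of 6 fell, with sums of 2447 and 2560 in FR, against 3847 and 3748 in control. All 3 T cell markers that entered through control alone fell, and 1 of the 3 that met the filter in both diets. For platelets 5 of 6 fell, with 35740 and 34340 in FR, against 83210 and 84070 in control. Neutrophil markers fell in 3 of 5, with sums of 8752 and 9142 in FR, against 20500 and 10310 in control. Under the 3-pool variance prior none of the 3 neutrophil calls passed (0 of 3), and 4 of the 5 platelet calls did, while the B cell, T cell and monocyte calls all passed. Reticulocyte markers had 1 of 6 lower and sums of 569500 and 618900 in FR, which overlap 589600 and 510600 in control. Of 6 cardiac muscle markers 2 were tested and did not pass, with sums of 709 and 704 in FR and 706 and 657 in control, and Myh6, Tnnt2, Myl2 and Ryr2 were not above background on all 4 arrays of either diet. The part of the white cells and platelets in the carriers' ratios was not tested.

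Pool 2 had the lower ratio for 10 of the 11 carriers that fell, the exception being Slc25a24, and all 11 were below 0 in the repeat pool as well. Neither count was made over all features called lower, so they are not read as particular to the carriers. In control blood the summed markers were higher in pool 2 than in pool 3 for B cells, monocytes, neutrophils and reticulocytes. The control sums of pools 2 and 3 were close for T cells (3847 and 3748) and platelets (83210 and 84070). Any link between these sums and the carriers' ratios was not tested. Over the 23 tested carriers, 13 had a negative ratio in both pools, 6 a positive one in both and 4 a mixed sign. Among all 11499 features these counts were 4630, 4118 and 2751. Of the 15 carriers that entered through control alone, 10 were negative in both pools, beside 2452 of 4324 such features. For the 7 carriers with both diets above background, 3 were negative and 3 positive in both pools, beside 2178 and 3062 of 7047 such features. Under each of the 18 alternatives of processing, Slc25a5 kept its direction and its call, at ratios between -2.49 and -1.50. Slc25a3 and Slc25a11 did so under the 17 alternatives in which they were tested, between -1.96 and -0.79 and between -1.97 and -0.91. Slc25a4 did so under 16 of 17, the exception being the fit that treated FR and control as unpaired (no replicate block, adjusted p = 0.0724). These counts are not of independent checks. Processed signals and the series table hold the same values and gave identical results, and other alternatives reuse the same animals through the repeat pool.

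**Figure D4:**
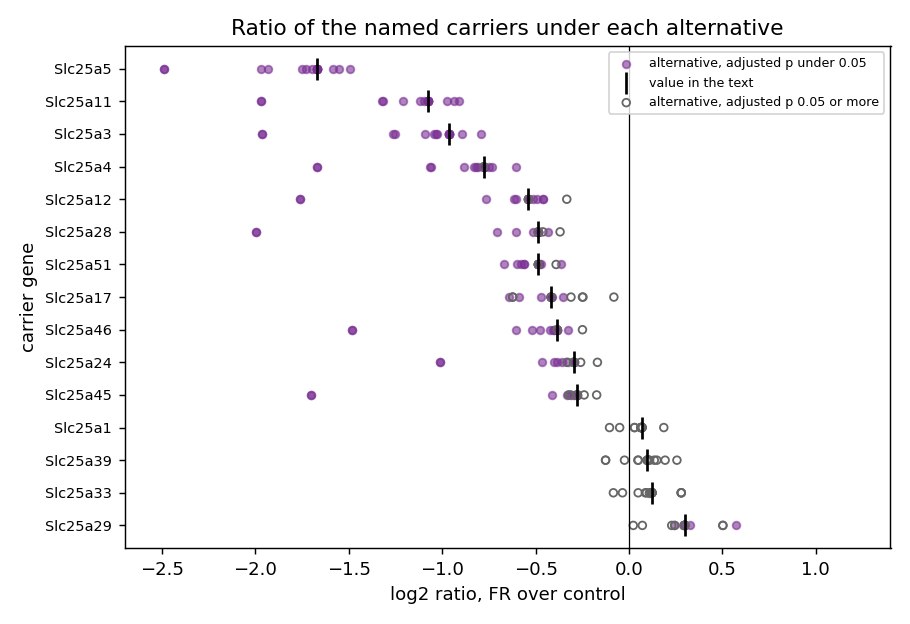
Log2 ratio of FR over control (x axis) for each of the named carriers (y axis) under each processing alternative; filled points passed the test, open points did not, and black ticks are the values given in the text. Slc25a5, Slc25a11 and Slc25a3 show filled points alone, while Slc25a1, Slc25a39 and Slc25a33 have open points on both sides of 0.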

How the data were processed

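The samples were 6 two-colour Agilent arrays of pooled blood RNA. The deposited scanner files hold intensity values per spot, and the submitters' processing notes name Agilent Feature Extraction 11.0.1.1. The table that the authors deposited for the series holds log10 ratios of red over green, which equalled those of the scanner files' processed signals at every spot within 1e-04. The labels give each array's dyes.

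Median signals were corrected by normexp (offset 50), loess was run within each array (control spots weighted 0), and spots marked as outliers were left out. No spot was saturated (0 spots). Spots of a probe and both arrays of a pool were averaged, and ratios were turned to FR over control. Of 41174 probes, 23374 were named through the RefSeq table of GRCm38.p6. The brightest kept probe stood for a gene. Signals per diet came from loess and Aquantile normalization.

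Ratios of pools 2 and 3 were tested against 0 with limma 3.58.1 in R 4.3.3 (eBayes with trend, two-sided), Benjamini-Hochberg adjusted over 11499 features, after a run on simulated data. FR and control of a pool share an array, so pool is a block by construction. Every array carries both diets. Turned ratios of the dye-swapped arrays correlated at 0.669, 0.704 and 0.525 over probes in pools 1, 2 and 3. Between 20.4% and 55.6% of spots were well above background in FR and between 37.2% and 62.1% in control, and the number of arrays limits the precision. Carriers, lists and motifs were chosen with earlier results of these data known. Of those tested, 1 carrier is counted but not reported here by name. Text names the carriers past the threshold, the 6 brightest, and up to 4 called genes per list.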

Additional observations from a re-analysis of the deposited data

How the results depend on the processing

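No carrier was higher and 11 were lower, and the number lower was 2 with both diets above background (7 carriers tested), 4 under the 3-pool variance prior, 3 with no replicate block and 6 on arrays with FR in Cy3 alone. When pool 1 replaced pool 2 or pool 3 it was 8 to 13. The number higher was 1 with all 3 pools or with FR in Cy5 alone, 2 with FR in Cy3 alone, 3 with the slide as a block, and 1 to 2 when pool 1 replaced either. The carriers' median moved to -0.41 with processed signals or the series table, -0.43 with median centring, -0.17 with no background subtracted, -0.081 when dim probes were kept, -0.31 with all 3 pools, -0.30 to -0.33 when pool 1 replaced either, and -0.21 with background outlier spots left out, a setting chosen after seeing the data. It was 0.068, of opposite sign, with both diets above background. Median centring moved the median of all features to -0.18, against 0.01. Signs turned for Slc25a39 with processed signals or the series table (-0.13) and without pool 3 (-0.024, against 0.26 without pool 2), for Slc25a1 with median centring (-0.10) and FR in Cy3 alone (-0.050), and for Slc25a33 with median centring (-0.084) and FR in Cy5 alone (-0.035). Processed signals gave larger decreases, with Slc25a12 at -1.76, Slc25a28 at -1.997, Slc25a45 at -1.71, Slc25a46 at -1.48 and Slc25a24 at -1.01. Over all features, between 114 and 3734 were higher and between 972 and 4478 lower. Without pool 2 and pool 3 in turn, pool 1 shares animals with the pool that is left. The setting with both diets above background left out Slc25a47 and the 15 carriers that entered through control alone, 9 of which had fallen. The cause of the other shifts was not tested. FR signal near background limits the size of the decrease for 9 of the 11 carriers.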
